A study of Mus musculus with 6 samples.

Results

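The dental tissue examined here was the cervical loop (CL) fraction of the lower incisor, the growing end of the tooth where dental epithelial stem cells reside, compared between Med1 knockout (KO) and control (CON) mice. Its members were all genes whose probe was detected on either of 2 bead arrays, KO CL or CON CL, with a detection p-value under 0.01 against the negative-control beads of that array. These were 8794 of the 16593 genes with a named probe, or 53%. The detection threshold parted genes of like brightness, since the 250 genes with a lowest detection p-value from 0.005 up to the threshold had a median log2 intensity of 6.15 in CON CL and the 199 genes from the threshold up to 0.015 had 5.88.

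Both groups were C57BL/6 mice of 4 wk with homozygous floxed Med1 alleles (Med1 fl/fl). KO mice also carried a Cre transgene driven by the Krt14 promoter, and CON mice were littermates with no Cre. Tissue was micro-dissected, tissue of 3 mice was combined for each array, and each group had 1 array, so each value below is that of 1 pool and no spread between mice and no test of a difference can be given. Cre from the Krt14 promoter acts in epithelium, while the dissected tissue also held mesenchyme, blood and other cells with intact Med1. The CL fraction also took in the inner dental epithelium with its transit amplifying cells. In such bulk tissue, fewer cells of a type and less RNA per cell cannot be told apart.

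Med1 is a subunit of Mediator, the complex that links DNA-bound transcription factors to RNA polymerase II, and it is the subunit that nuclear receptors such as the vitamin D receptor contact. In the mouse incisor, which grows throughout life, stem cells of the cervical loop supply the transit amplifying cells and then the ameloblasts, the cells that lay down enamel. The skin and the oral mucosa come from the same embryonic ectoderm. In these tissues keratinocytes leave the basal layer, change their keratins and build the cornified envelope, a shell of cross-linked proteins.

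The CL tissue bore the marks of dental epithelium on both arrays. On the log2 scale, Krt14, the basal keratin that drives the Cre, had an intensity of 14.50 in CON CL and 14.60 in KO CL. The enamel matrix gene Amelx had 14.98 and 14.91, and Shh, the ligand made by the inner dental epithelium, had 13.38 and 12.65. The stem cell genes Sox2, Lgr5 and Gli1 were not detected on either array (lowest detection p-value of 0.0877, for Sox2 in KO CL), so the arrays gave no measure of them here. Med1 itself had 9.58 in CON CL and 9.04 in KO CL, a log2 difference (KO minus CON) of -0.54, or -0.30 when all its probes were averaged. Of its 4 probes 3 were detected on both arrays, with differences of -0.54, -0.53 and -0.20. The files do not place these probes against the deleted exons.

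The rule for calling a gene higher or lower asked that its KO and CON values differ at least 1.5-fold, which is 0.58 on the log2 scale, with detection on the brighter array. Where a single array detected a gene, the other side took its own value or the lowest detected value of that array, 6.19 in CON CL and 6.02 in KO CL, whichever was higher, and the difference is given as a bound with "at least". By this rule 159 genes were higher in KO CL (1.81% of those considered) and 176 lower (2.0%). With the normalized values that the authors deposited, which keep the background in, the counts were 47 and 35. A fold of 2 or more was reached by 31 genes that were higher and by 15 that were lower. For most genes the KO and CON values were close. The lower and upper quartiles of the difference over all 8794 genes were -0.16 and 0.13. The median was -0.02, but quantile normalization gives the arrays a common distribution, so a median near 0 is built in.

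**Figure D1:**
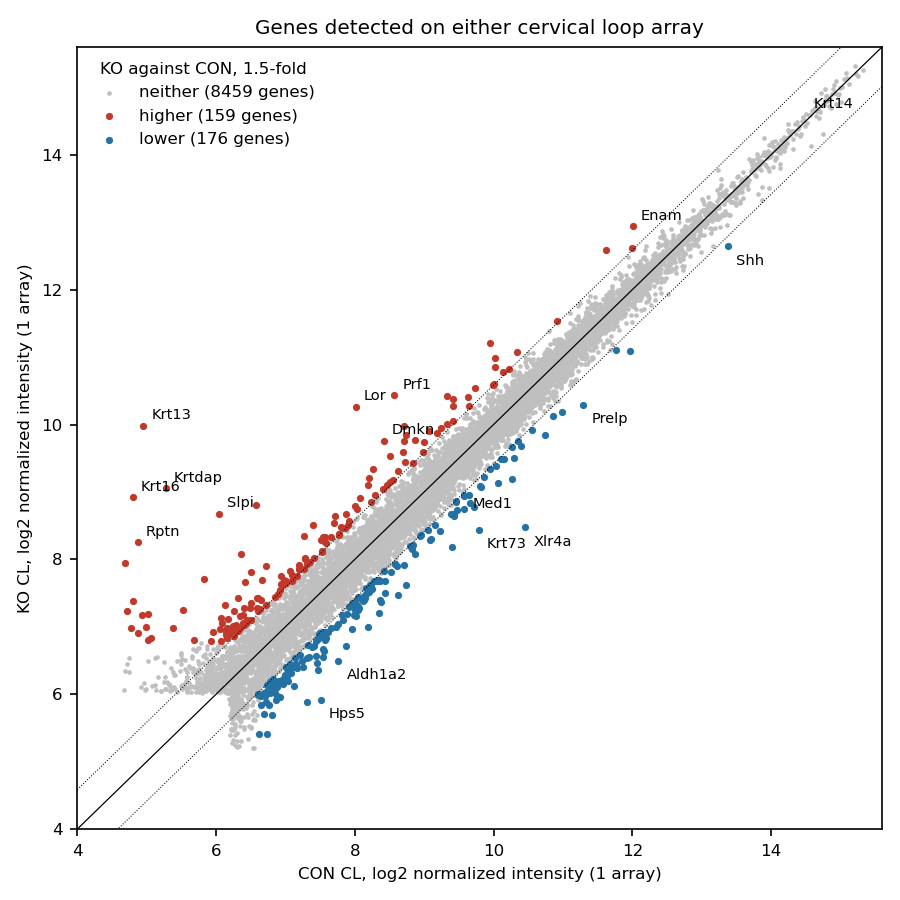
Log2 normalized intensity of each of 8794 genes on the CON CL array (x axis) and the KO CL array (y axis), 1 array each, with the 1.5-fold limits as dotted lines. Red points are the 159 genes higher in KO and blue points the 176 lower, and Krt13, Krtdap, Krt16 and Rptn lie at the upper left, bright in KO and not detected in CON, while Lor and Dmkn were detected on both arrays.

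The spread of the differences depended on brightness. Among genes detected on both arrays, the standard deviation of the difference was 0.33 for genes with a mean log2 intensity from 7 to 8, where 7.58% were past the fold, and 0.17 for genes at 12 or brighter, where 0.504% were. The threshold itself fell in a dense part of the distribution. Within 0.1 of it lay 58 genes just inside and 118 just outside on the higher side, and 65 and 135 on the lower side. A further probe gave only a weak check within these same RNA pools. It had to be detected on the array that was brighter by the main probe, which favours the same direction. The share over all genes was not counted, so the agreement is no separate support. For 51 of the genes past the fold, 63 further probes were detected on the brighter array, of which 58 differed in the same direction and 26 also passed the fold. The 5 that went the other way belonged to Pcmtd1, Pth1r, Rnf41, Vav3 and Wwc1, and that of Rnf41 passed the fold in the other direction (-0.98, beside 0.62 for the main probe).

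Many of the detected keratins and cornified envelope genes were brighter in KO CL, and among them Krt13, Krtdap and Krt16 had the 3 largest differences of all genes at CL. Krt13, the type I keratin of the suprabasal oral mucosa, was not detected in CON CL (log2 intensity 4.95, detection p-value 0.222) and had 9.98 in KO CL, at least 13.9-fold more. Its mucosal partner Krt4 was also detected in KO CL alone, with 7.17 (at least 1.98-fold). Krt76, a keratin of the palate and gums, was detected in KO CL alone as well, with 6.80 (at least 1.53-fold). Krt16 and Krt6b, keratins that wounded or stressed epithelia make, were again not detected in CON CL and had 8.93 and 7.95 in KO CL, at least 6.66-fold and at least 3.39-fold more. A second probe of Krt6b had 4.64 and 6.71. None of these 5 keratins gave a signal above background in CON CL.

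Over the list of oral mucosa and stress keratins, 10 of 14 genes on the array were detected, 5 of them were higher in KO and 1, Krt18, was lower (8.43 in CON CL and 7.5 in KO CL). The median difference of the list was 0.48, against -0.02 over all genes. Of the 10 detected genes 6 were detected in KO CL alone, so they could not be called lower. Krt18 is a keratin of simple epithelia, and its partner Krt8 differed by -0.05. Keratins that the dental epithelium already carried at high level differed little. Krt17 had 13.84 and 13.88, and Krt5, the basal partner of Krt14, had 10.37 and 9.99. Krt10, a suprabasal keratin of the epidermis, was present in both, with 10.02 in CON CL and 10.99 in KO CL, 1.96-fold more. Its usual partner Krt1 was not detected on either array (detection p-values of 0.684 and 0.217). With the deposited normalized values 3 of the 5 keratins passed the fold.

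Of 48 cornified envelope genes on the array 18 were detected, 11 of them in KO CL alone. The 9 higher genes were Krtdap, Lor, Rptn, Dmkn, Calm4, Cnfn, Sprr2d, Sprr1b and Tgm1. Over all genes considered, 350 of 8794 were detected in KO CL alone. Such genes cannot be called lower, and the detection filter nearly fixes the sign of their bound. With them included, no detected member was lower past the fold, 17 of the 18 differences were above 0, and the median was 0.63. The sign count and the median are therefore no separate support. Lor encodes loricrin, the main protein of the cornified envelope. It was detected on both arrays with 8.01 in CON CL and 10.26 in KO CL, 4.76-fold more. Krtdap, a secreted protein of differentiating keratinocytes, had 9.06 in KO CL and was not detected in CON CL, at least 7.31-fold more. Rptn (repetin), an envelope precursor abundant in the tongue, had 8.25 in KO CL and was not detected in CON CL, at least 4.18-fold more. Its second probe was at 4.55 in CON CL and 6.78 in KO CL. Dmkn (dermokine), a neighbour of Krtdap, had 8.42 and 9.76, 2.54-fold more, and 2 further probes differed by 1.13 and 0.31. Tgm1, the transglutaminase that cross-links the envelope, had 9.18 and 9.87. Calm4, Cnfn, Sprr2d and Sprr1b were detected in KO CL alone and near the detection limit, between 6.91 and 7.23. The member with the lowest difference was Krt80, at -0.55. The list counted 5 higher genes with the deposited normalized values.

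**Figure D2:**
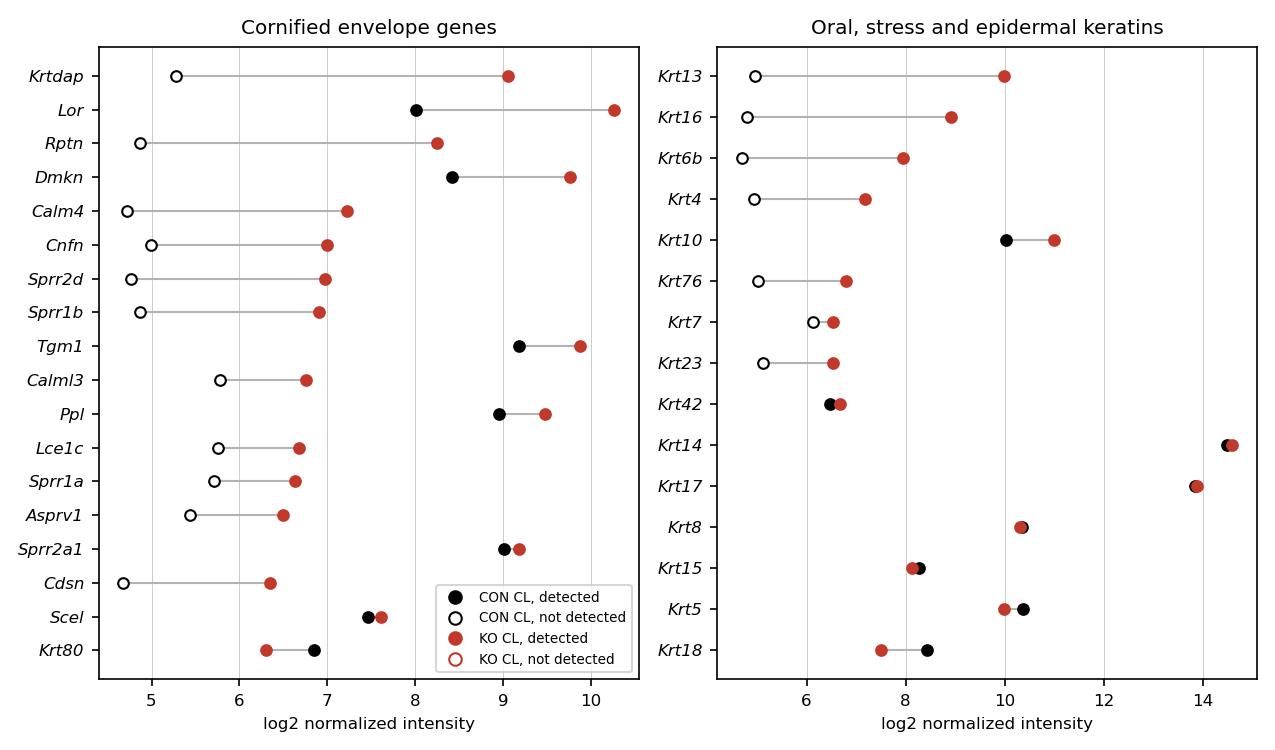
Log2 normalized intensity (x axis) of each detected cornified envelope gene (left) and of each detected oral, stress or epidermal keratin (right) on the CON CL array (black) and the KO CL array (red), 1 array each, open where not detected. Krt13 lies at 4.95 in CON CL and 9.98 in KO CL, while Krt14 and Krt17 overlie each other on both arrays.

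These genes sit in a few clusters of the genome. On the GRCm38.p6 build, Lor lies on chromosome 3 from 92080271 to 92083142 and Rptn from 93393699 to 93399442, both within the epidermal differentiation complex. Sprr1b and Sprr2d are on the same stretch. Dmkn and Krtdap follow each other on chromosome 7, from 30763756 to 30781066 and from 30787905 to 30791089. Krt13 and Krt16 belong to the type I keratin cluster of chromosome 11, and Krt4, Krt6b and Krt76 to the type II cluster of chromosome 15.

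The promoters of 4 of these genes are shown because their genes had the largest differences among those with an entry in RefSeq (GRCm38.p6), each from 250 bases before to 50 bases after the start of the transcript. Capitals mark the motif TGANTCA, in which N is any base. It is looser than the usual AP-1 heptamer, in which N is G or C. In the windows shown, Lor and Krtdap have G at N, while Krt13 has A and Rptn has T. The motif reads the same on both strands, and no match overlapped another. In Krt13 the window of the upstream start is shown (chr11:100121517-100121816, minus strand). Lor is at chr3:92083093-92083392 on the minus strand, Krtdap at chr7:30787655-30787954 and Rptn at chr3:93393449-93393748, both on the plus strand.
Krt13: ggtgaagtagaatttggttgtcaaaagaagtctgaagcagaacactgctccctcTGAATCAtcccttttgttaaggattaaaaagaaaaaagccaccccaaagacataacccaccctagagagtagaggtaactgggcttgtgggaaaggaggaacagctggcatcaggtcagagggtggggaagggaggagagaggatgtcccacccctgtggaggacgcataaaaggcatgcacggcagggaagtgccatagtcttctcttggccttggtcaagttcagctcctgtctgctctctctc
Krtdap: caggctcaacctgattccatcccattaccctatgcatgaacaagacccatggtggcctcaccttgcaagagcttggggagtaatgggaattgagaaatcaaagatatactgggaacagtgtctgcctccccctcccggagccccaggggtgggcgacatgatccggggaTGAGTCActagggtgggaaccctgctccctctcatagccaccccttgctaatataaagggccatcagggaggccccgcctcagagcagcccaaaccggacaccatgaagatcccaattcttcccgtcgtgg
Lor: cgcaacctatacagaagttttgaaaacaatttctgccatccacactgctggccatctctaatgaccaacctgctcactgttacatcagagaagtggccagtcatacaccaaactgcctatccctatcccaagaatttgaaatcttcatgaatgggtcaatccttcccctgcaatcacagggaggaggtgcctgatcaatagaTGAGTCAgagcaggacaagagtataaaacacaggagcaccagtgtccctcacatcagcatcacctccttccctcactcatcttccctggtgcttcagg
Rptn: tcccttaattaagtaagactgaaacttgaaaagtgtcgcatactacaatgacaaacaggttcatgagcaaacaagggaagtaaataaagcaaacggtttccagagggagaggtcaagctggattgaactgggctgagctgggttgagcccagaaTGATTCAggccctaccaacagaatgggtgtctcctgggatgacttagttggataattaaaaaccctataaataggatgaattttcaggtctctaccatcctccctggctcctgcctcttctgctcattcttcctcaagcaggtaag
The match began 48 bases before the start in Lor, 81 in Krtdap, 96 in Rptn and 196 in Krt13. The downstream start of Krt13 had 2 matches, both TGACTCA. Of the 15 keratin and cornified envelope genes that were higher in KO CL, 12 had a window and 7 held the looser motif. In Rptn and Sprr1b the only match had A or T at N. Among all genes considered, 448 of 7144 with a window held it (6.27%), and among all genes with a window, 2425 of 27025 did (8.97%). The genes without it were Cnfn, Tgm1, Calm4, Krt76 and Krt10. A match is a description of letters in a window and not of binding.

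The AP-1 subunits and other immediate early genes were not brighter in KO CL. Of 21 detected genes none was higher, and Egr1, a zinc finger factor that follows growth signals, was lower (11.77 in CON CL and 11.11 in KO CL). Jun had 8.86 and 8.32, and Fos had 9.04 and 9.0. The median of the list was -0.16. Vdr, the vitamin D receptor that Med1 serves, had a difference of 0.40.

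A few secreted and surface proteins known from stratified epithelium were also brighter in KO CL, and those named here were chosen after their values were seen. Slpi, a protease inhibitor of mucosal secretions, had 8.68 in KO CL and was not detected in CON CL, at least 5.62-fold more. Serpinb12, a serpin of surface epithelia, was detected in KO CL alone with 7.39. Ly6g6c and Fam25c were also detected in KO CL alone, with 7.19 and 7.71. Lypd3, a keratinocyte adhesion protein, had 7.88 and 8.68, and Fabp5, the fatty acid carrier of the epidermis, had 6.93 and 7.64. The lists nearest to these genes did not move as a whole. The kallikreins, serpins and Spink inhibitors had a median of 0.06, and 3 of the 15 detected were higher in KO CL and 1 was lower, and of 11 detected barrier lipid genes Fabp5 alone was higher, with a median of 0.14. None of 7 hair shaft keratins on the array was detected at CL, and 4 of 13 inner root sheath or companion layer genes were detected. Krt27 was higher in KO CL (8.99 and 9.60) and Krt73, another inner root sheath keratin, was lower (9.78 and 8.44). Of 19 detected epidermal and hair transcription factors none passed the fold. Serpinb12, Fabp5 and Krt27 were within the fold with the deposited values.

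The arrays of the secretory (Sec) and maturation (Mat) stages show the same genes in other tissue. Their values are not compared in the CL contrast, but they enter the normalization over all 6 arrays and the choice of each gene's probe. Lor had 13.47 in KO Sec and 13.91 in KO Mat, well above its 10.26 in KO CL, while the CON arrays stayed between 7.13 and 8.01. Krtdap likewise had 12.54 and 13.23. Krt13 had its highest value of all 6 arrays in KO CL, with 6.86 in KO Sec and 7.53 in KO Mat. Krt4 was detected on none of the other 4 arrays. Krt76 was detected in CON Sec (6.60) and CON Mat (7.60) and not in KO Sec or KO Mat. Krt16 had 11.30 in CON Mat and 9.20 in KO Sec. Krt4, Krt13 and Krt76 are the defining keratins of oral mucosa in the list. The part of oral mucosa in the dissected tissue was not tested.

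**Figure D3:**
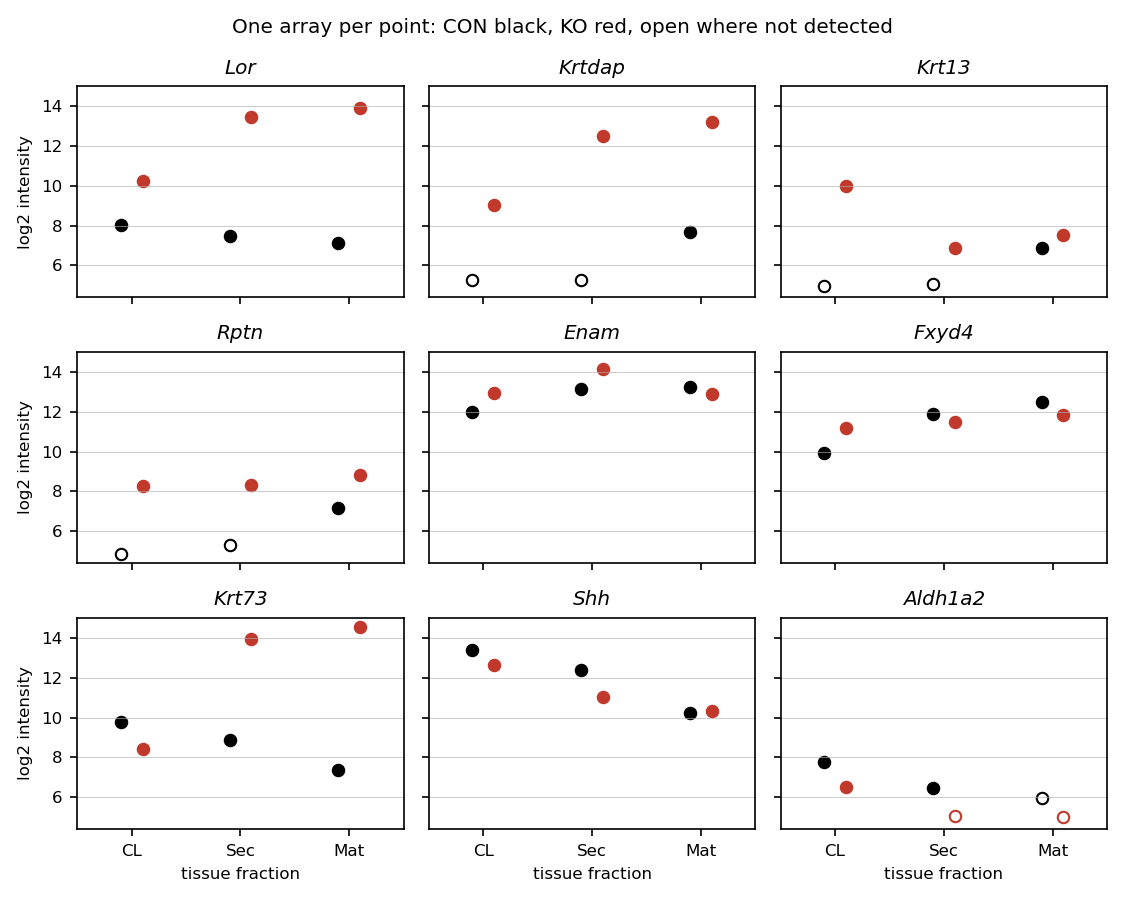
Log2 intensity (y axis) of 9 genes in the CL, Sec and Mat fractions (x axis), with CON in black and KO in red, 1 array for each point and open where not detected. Lor and Krtdap are brightest in KO Mat (13.91 and 13.23), Krt13 in KO CL (9.98), and Krt73 is lower in KO at CL alone.

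Among the genes of enamel, 2 were brighter in KO CL. Enam, which encodes the enamel matrix protein enamelin, had 12.01 in CON CL and 12.95 in KO CL, 1.92-fold more, although a second detected probe of Enam differed by 0.40. Mmp20, the protease that trims the young matrix, had 9.73 and 10.54, 1.75-fold more. Klk4, the protease of enamel maturation, was near the detection limit and lower, with 6.86 and 6.19. The most abundant matrix genes Amelx and Ambn differed by -0.08 and 0.19, and the other detected genes of the list lay between 0.10 and 0.37. The median over the 9 detected genes was 0.19. Klk4 was within the fold with the deposited values, and so was Enam with the mean of its probes.

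For 6 of the genes that were brighter in KO CL, chosen after their values were seen, the CON arrays showed higher levels beyond the CL. Fxyd4, a regulator of the sodium pump, had 9.95 in CON CL and 11.21 in KO CL, beside 11.90 in CON Sec and 12.50 in CON Mat. Hap1 had 8.71 and 9.76, beside 11.39 in CON Sec. Gad1, the enzyme that makes the transmitter GABA, had 6.66 and 7.70, beside 10.23. Cd55, a brake on complement, had 8.70 and 9.98, beside 10.94. Serpina3n, an inhibitor of serine proteases, had 7.39 and 8.51, beside 9.96. Cftr, the chloride channel of the ameloblast, had 7.78 and 8.37, beside 10.55. Cftr was within the fold with the deposited values, and it was the one gene past the fold among 21 detected genes of enamel ion transport, whose median was 0.00. Each of these KO CL values lay between those of CON CL and CON Sec. The CON CL array is in both of these comparisons, so they are given side by side only. Where the cut between the fractions fell was not tested.

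Signals of the dental epithelium were dimmer in KO CL for a few genes. Shh had 13.38 in CON CL and 12.65 in KO CL, a 1.66-fold difference, while its second probe differed by -0.20 and the mean over both probes did not reach the fold. Of 10 detected hedgehog genes Shh was the one past the fold. Its inhibitor Hhip differed by -0.53 and its receptor Ptch1 by 0.22, with a median of -0.15 over the list. Fgf9, a ligand of the dental epithelium that acts on the mesenchyme, had 7.45 and 6.47, 1.98-fold less in KO. Sfrp5, a secreted Wnt inhibitor of the cervical loop, had 8.02 and 7.16, 1.82-fold less. Scube1, a secreted protein of the dental epithelium, had 7.99 and 7.17. Rgma, a co-receptor of BMP ligands, had 8.37 and 7.39. Fgf9 and Sfrp5 were within the fold with the deposited values.

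Of 17 detected stem cell genes of the dental epithelium Sfrp5 alone passed the fold, and 5 of the 17 differences were above 0. Vwa2, a basement membrane protein used as a mark of these cells, had 12.27 in CON CL and 11.77 in KO CL, a difference of -0.50, and its other 2 probes differed by -0.61 and -0.26. Spry4, an inhibitor of FGF signals, differed by -0.56. Bmi1, a Polycomb protein that stem cells need, differed by 0.52, and Sox9 by 0.22. The median of the list was -0.14. Among the 29 detected genes of the Notch pathway none passed the fold. Their differences ran from -0.51 for Dlk1, an atypical ligand, to 0.54 for Dll1, a classical one, with a median of -0.06. Notch1 had 9.98 and 9.75, and its target Hes1 had 9.64 and 9.75.

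The BMP and TGF-beta list held 4 lower genes and 1 higher gene among 42 detected, with a median of 0.00. Gdf10, a BMP family ligand, had 8.19 and 7.0, 2.29-fold less in KO. Inhba, the activin A subunit, had 9.10 and 8.30, and Inha, the subunit that turns activin into inhibin, had 7.98 and 7.32. Tgfbr3 (betaglycan), the co-receptor that inhibin uses, had 9.87 and 9.22. Fst (follistatin), the soluble activin inhibitor, was the higher gene, with 6.51 and 7.36. With the deposited values 2 of the 4 lower genes passed the fold and Fst did not.

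Integrin chains that form the receptor which activates latent TGF-beta were brighter in KO CL. Itgb6, the epithelial partner of the alpha v chain, had 10.34 and 11.08, and Itgav, the alpha v chain itself, had 7.54 and 8.33. Itga9 had 6.25 and 7.01. These were the 3 higher genes of 26 detected integrins, laminins and hemidesmosome genes, of which none was lower and whose median was -0.02. With the deposited values 1 of the 3 passed the fold. Fermt1 (kindlin-1), an activator of epithelial integrins, had 8.01 and 8.78. Cldn1, a claudin of tight junctions, had 9.99 and 10.59, and was within the fold with the deposited values.

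Aldh1a2, the enzyme that makes retinoic acid in mesenchyme, had 7.76 in CON CL and 6.5 in KO CL, 2.40-fold less, and a second probe differed by -0.57. It was the one gene past the fold among 16 detected genes of the retinoic acid pathway. Aldh1a1 and Aldh1a3, its relatives, differed by 0.39 and -0.30. Among matrix genes, Prelp, a leucine-rich proteoglycan, had 11.30 and 10.29, and Smoc1, a matrix protein that binds calcium and curbs BMP signals, had 9.82 and 9.07. The 27 detected collagen chains held no gene past the fold, with Col1a1 at 14.63 and 14.70 and Col18a1 at 12.24 and 12.04. Slit2 differed by -0.17. Ccn1 and Ccn2, matrix proteins that growth factors induce, differed by -0.53 and -0.14, and Igfbp6, a carrier of IGF2, was lower (8.16 and 7.49). Tnfrsf11b (osteoprotegerin), the decoy that holds back osteoclasts, had 9.58 and 8.75, and Pth1r, the parathyroid hormone receptor, had 8.82 and 8.16. A second Pth1r probe differed by 0.35 in the other direction. Igfbp6 and Pth1r were within the fold with the deposited values.

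The single largest value in the lower direction was that of Xlr4a, an X-linked gene of a lymphocyte-regulated family whose copies are near-identical, so the copy measured is uncertain. It had 10.46 in CON CL and 8.48 in KO CL, 3.93-fold less. Hps5, part of a complex that sorts cargo to pigment granules, was detected in CON CL alone with 7.51, at least 2.80-fold more than in KO CL. Zfp763, a zinc finger gene, had 9.40 and 8.18, but its second probe differed by -0.21. Other lower genes detected on both arrays were St6galnac5 (a sialyltransferase), Ntrk3 (the receptor of neurotrophin 3), Zfp612, Aoc3 (an amine oxidase of vessel walls) and H2-T23, with differences between -1.08 and -1.16. H2-T23 is one of the class I MHC genes, which share much of their sequence. H2-T10 and Gm8909 of the same family were higher (0.74 and 0.87), and how their probes divide the signal is uncertain. On the higher side, Ccdc144b had 6.58 and 8.81, 4.69-fold more, and Prf1, annotated as perforin 1, had 8.57 and 10.44, 3.66-fold more. Aqr, a splicing helicase, had 6.73 and 7.90, but a second probe differed by 0.17.

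Most genes of dividing cells differed little between the 2 arrays. Of 43 detected cell cycle genes 1, Ccne2, was higher (6.65 and 7.39), and none was lower, while 14 of the 43 differences were above 0 and the median was -0.08. Cdc25a, a phosphatase that activates cyclin-dependent kinases, is outside the list and was lower (8.24 and 7.56). Top2a had 10.84 and 10.82, and Ccnd1 had 13.14 and 12.84. Of 36 detected DNA replication genes 1, Pcna, the sliding clamp of DNA polymerase, was higher (6.72 and 7.33), and the median was 0.08. Neither Ccne2 nor Pcna passed the fold with the deposited values. Of 20 detected inhibitors of cyclin-dependent kinases and p53 targets none passed the fold, Cdkn1a being at 0.41.

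The clustered histone genes, a list added after its values were seen, showed a split by family. Their transcripts are made in S phase and end in a stem-loop in place of a poly(A) tail. Of 39 detected genes 11 were higher in KO CL, none was lower, and the median was 0.32. The summed intensity of the list went the other way, with 102006 in CON CL and 95738 in KO CL. All 10 detected H4 genes had differences above 0 and 6 were past the fold, led by H4c12 with 7.27 and 8.35. All 9 detected H2B genes were also above 0 and 4 were past the fold, led by H2bc15 with 9.41 and 10.38. Of 12 detected H2A genes 9 were below 0, with a median of -0.28, and H2ac18 was the one past the fold (7.71 and 8.64). Of 7 detected H3 genes 6 were above 0 and none passed the fold. Copies of each histone are near-identical in coding sequence, so which copy a probe reads is uncertain. Rnu6, the U6 small nuclear RNA, which has no poly(A) tail either, was brighter too, with 11.62 and 12.59. Its part in the histone values was not tested. With the deposited values 4 of the 11 passed the fold.

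**Figure D4:**
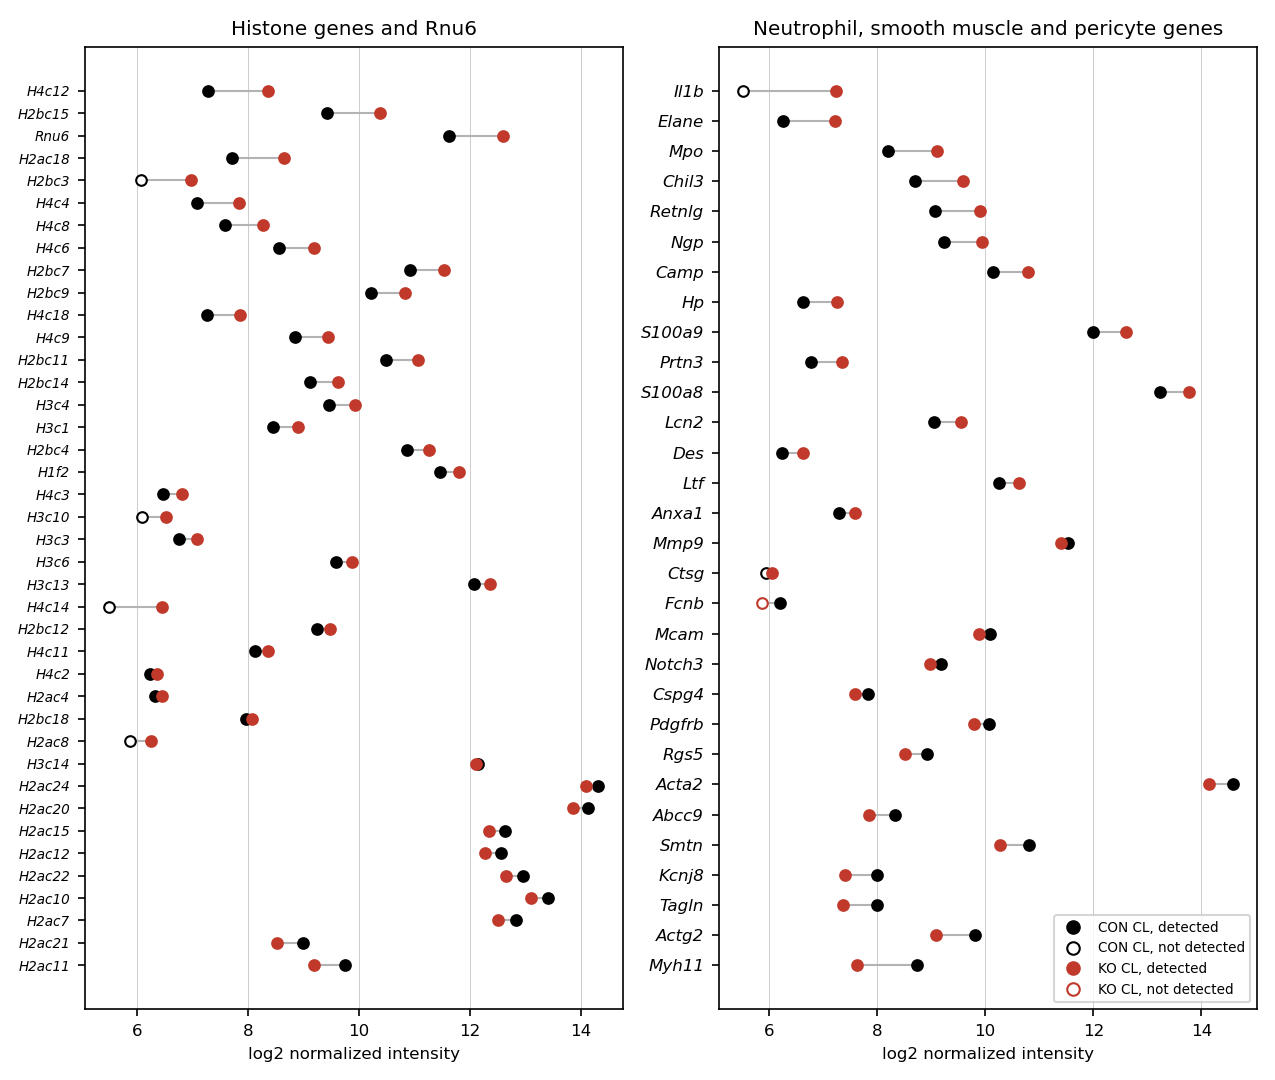
Log2 normalized intensity (x axis) of the detected histone genes and Rnu6 (left) and of the detected neutrophil, smooth muscle and pericyte genes (right) on the CON CL array (black) and the KO CL array (red), 1 array each, open where not detected. H4 and H2B genes have KO to the right of CON, most H2A genes have it to the left, most neutrophil genes have it to the right, and 12 of 13 smooth muscle and pericyte genes, all but Des, have it to the left.

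Markers of other cells of the tissue also differed between the arrays. Of 24 neutrophil genes on the array 17 were detected, 9 of them higher in KO CL and none lower, and the median was 0.61. Mpo, the granule enzyme myeloperoxidase, had 8.19 and 9.11, and Elane, neutrophil elastase, had 6.26 and 7.23. Chil3, Retnlg, Ngp and Camp, other granule or secreted proteins, differed by 0.65 to 0.90. S100a9 reached 12.61 in KO CL, a difference of 0.61, and its partner S100a8 had 13.24 and 13.78. The inflammatory cytokine Il1b and the neutrophil attractant Cxcl1 were detected in KO CL alone, with 7.25 and 6.99. The list of cytokines and chemokines did not move as a whole. Of its 15 detected genes 2 were higher and none was lower, and the median was 0.09. Its summed intensity went the other way, with 12174 in CON CL and 10757 in KO CL. The summed normalized intensity of the neutrophil genes was 21828 in CON CL and 31041 in KO CL. With the deposited values 6 of the 9 passed the fold. Without all members of the neutrophil, erythroid, skeletal muscle and sex-linked lists, a choice made after seeing the data, 145 genes were higher in KO CL. This count only leaves out the listed genes and does not test whether such cells moved the others.

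Smooth muscle and pericyte genes were dimmer in KO CL. Of 13 detected genes 3 were lower, 12 had differences below 0, and the median was -0.44. Myh11, the smooth muscle myosin, had 8.73 and 7.63, 2.15-fold less. Actg2 and Tagln, other contractile proteins, had 9.80 and 9.09, and 8.0 and 7.37. Acta2 had 14.58 and 14.13. The summed intensity was 31707 in CON CL and 23310 in KO CL, and without these genes and the lists named above 172 genes were lower. Skeletal muscle genes went both ways, with Myh8, Tnni2 and Ttn higher and Tnnt1 lower among 22 detected. Of 18 detected macrophage genes Cx3cr1, the fractalkine receptor, was lower (7.55 and 6.65), and the macrophage median was 0.01. With the deposited values Tnni2, Ttn, Tagln and Cx3cr1 were within the fold. Endothelial genes held none past the fold among 20, and osteoclast genes none among 9. Of 7 detected erythroid genes Slc4a1 was higher (9.63 and 10.41). The part of these cells in the differences of other genes was not tested.

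A sex-linked gene stood apart as well. Eif2s3y, on the Y chromosome, had 6.36 in CON CL and 8.08 in KO CL, and between 8.86 and 10.15 on the other 4 arrays. Xist, the RNA of the inactive X chromosome, had 11.11 and 11.07, and Uty, another Y-linked gene, had 6.26 and 6.55. The sex of the pooled mice is not given, and its part in the differences was not tested.

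Most lists of general cell biology held no gene past the fold. These were the housekeeping genes (9 detected), Mediator subunits (25), heat shock and unfolded protein response genes (27), glycolysis and hypoxia genes (25), nuclear receptors (24), dental transcription factors (20) and sterol synthesis genes (19). Gapdh differed by -0.03. Apart from Med1, the Mediator subunits ran from -0.45 for Med16 to 0.38 for Med11. The sterol list had no gene past the fold and a median of 0.23, with Sqle, the squalene epoxidase, at 0.51. Without the histone list, most of the 159 higher genes and most of the 176 lower ones lay outside the 54 lists. The share of all genes considered that lay outside them was not counted, and the lists were made with earlier results of these arrays known.

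**Figure D5:**
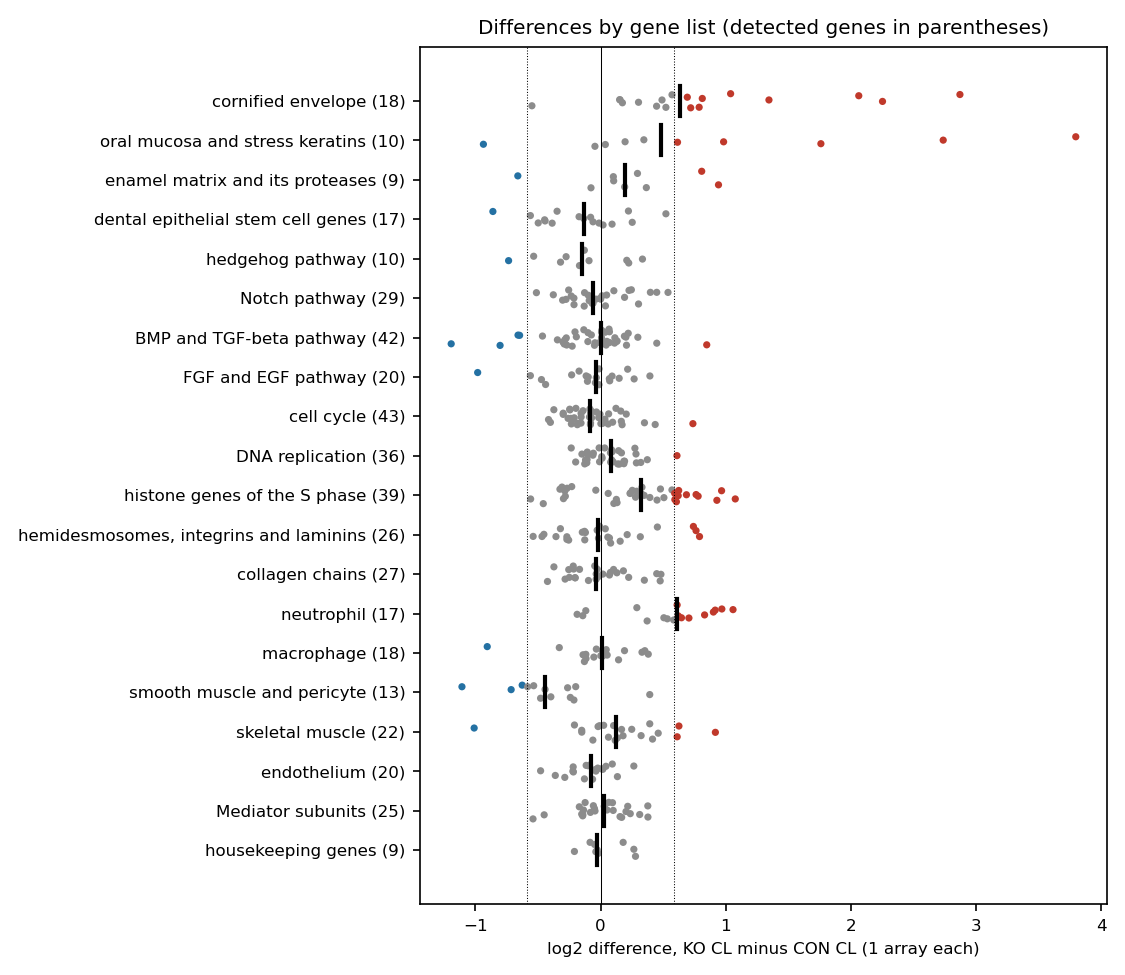
Log2 difference (KO CL minus CON CL, x axis, 1 array each) of each detected gene in 20 lists (y axis), with the median of each list as a black bar and the 1.5-fold limits dotted, red for genes higher in KO and blue for genes lower. The cornified envelope and neutrophil lists have medians of 0.63 and 0.61, the smooth muscle list -0.44, and the housekeeping list lies near 0. Of the 18 cornified envelope genes 11 were detected in KO CL alone, and their differences are bounds.

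The Sec and Mat arrays of both genotypes came from RNA of other tissue, which may be of the same mice, so the stages are no replicates of each other. At Sec and Mat 26.9% and 31.0% of considered genes passed the same fold, against 3.81% at CL. Of the 159 genes higher at CL, 73 were also higher at Sec (45.9%, against 8.85% of all genes considered at CL) and 39 at Mat (24.5%, against 9.72%). More of them, 43, were lower at Mat (27.0%, against 17.7% of all genes considered), and 13 were lower at Sec (8.18%, against 15.4%). Of the 176 lower genes, 71 were lower at Sec (40.3%, against 15.4%) and 49 at Mat (27.8%, against 17.7%). Higher at Sec were 17 of them (9.66%, against 8.85%), and higher at Mat were 16 (9.09%, against 9.72%). Higher at all 3 were 32 genes, 20.1% of the 159, against 4.17% of all genes considered that were higher at both Sec and Mat. They held Lor, Krtdap, Rptn, Dmkn, Krt10, Krt13, Calm4, Cnfn, Sprr1b and Lypd3 of the keratinocyte genes, and also Prf1, Qpct, Crtac1, Erich5 and Reln. Prf1, for one, had log2 differences of 1.87, 1.61 and 0.69 in the CL, Sec and Mat fractions. Lower at all 3 were 26 genes, or 14.8% of the 176, against 5.06% lower at both. Among them were Hps5, Zfp763, St6galnac5, Crispld2, Cx3cr1, Tnfrsf11b, Pth1r and the complement gene C4b. Cpxm1, a carboxypeptidase-like protein of mesenchyme, had log2 differences of -0.88, -1.80 and -1.17 in the same order.

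Other genes past the fold at CL turned round in the later fractions. Of the 176 lower genes, 9 were higher at both Sec and Mat by the same rule, while 4.17% of all genes considered were. The 9 are near that share, so the count is no trait of the lower genes. Among them were Krt73, Gdf10, Actg2, Anxa9, Dnase1l2 and Cdh6. Krt73 was 1.34 lower on the log2 scale in KO at CL, but had 13.96 in KO Sec and 14.54 in KO Mat, beside 8.87 in CON Sec and 7.37 in CON Mat. Of the 159 higher genes, 6 were lower at both, while 5.06% of all genes considered were, again a like share. Among the 6 was Gal, the neuropeptide galanin, with 6.61 in CON CL and 7.43 in KO CL. Gal had 8.41 in CON and 6.37 in KO among the Sec arrays, and 9.88 and 5.91 among the Mat arrays. Some genes were past the fold at CL and at neither of the other stages. These included Krt4, Il1b, Elane, Pcna, Itgb6 and several histone genes on the higher side. On the lower side they included Aldh1a2, Fgf9, Prelp, Aoc3, Tgfbr3 and Cldn2. Krt4 and Cldn2 were detected on none of the Sec and Mat arrays, and Fgf9 and Aldh1a2 on neither Mat array. There those arrays gave no measure of them, so a difference particular to CL is not shown.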

How the data were processed

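RNA of micro-dissected incisor tissue was labelled with biotin and hybridized to Illumina mouse bead arrays. The authors read the signal with GenomeStudio (version not given in the sources used here). Their deposited non-normalized table gives each probe on each array a mean bead intensity, in linear units, beside a detection p-value from comparison with negative-control beads. A second deposited table holds normalized intensity values, which a quantile normalization without background correction matched in the counts of higher and lower genes. From the non-normalized intensities, neqc of limma 3.58.1 in R 4.3.3 corrected the background, applied quantile normalization over all 6 arrays and gave log2 values (offset 16). The array annotation named 23978 of 25697 probes. The brightest probe of a gene, by its mean over all 6 arrays, stood for it. The number of arrays limits the precision. Calls and gene lists are descriptions of 2 arrays. The procedure was also run on simulated arrays, whose planted differences were larger than 1.5-fold and lay in brighter probes only. That run does not bear on calls near the fold or on dim genes. Gene positions and promoters are from RefSeq (GRCm38.p6).

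The genes named were drawn from the 15 with the largest differences in each direction among genes detected by both arrays. Further sources were the 8 brightest seen on a single array of each kind, up to 6 of each list, and the genes the study discusses. Others were named for a role in the text after their values were seen. Of the 15 in each direction, Gal3st4 (1.31), Steap1 (1.24), Ppbp (1.11), Nrn1l (1.10), Pcdh20 (-1.00) and Rab36 (-0.99) are not described elsewhere. Of the brightest in CON CL alone, Caln1 (a bound of -1.29), Pdcl3, Pde1b, Las1l, Psd2 and Fmn2 are not. The members and lists were chosen with earlier results of these data known. Alternatives changed the normalization, offset, probe summary, fold and detection filter.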

Additional observations from a re-analysis of the deposited data

Results flagged for a closer look

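Probes without a gene name were left out of the comparison. Of 1719 such probes 711 were detected on either CL array, and by the same rule 11 were higher in KO CL and 10 lower, with differences from -1.02 to 1.05 on the log2 scale. They were taken up as a signal in data outside the main measurement. The cause was not tested.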

How the results depend on the processing

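No paired analysis was possible because each group had 1 array. The higher and lower genes in KO CL, 159 and 176, were 47 and 35 both with the deposited normalized values and with quantile normalization without background correction, 94 and 90 with an offset of 50, 31 and 15 at a fold of 2, and 353 and 375 with no detection filter. These alternatives compress the log2 scale or change which genes can be counted by their own construction. The counts were within 1.5 times under the other alternatives, from 127 to 228 higher and from 140 to 250 lower. The 47 and 35 genes were all among the 159 and 176. The difference of Med1 ran from -0.55 to -0.30. Of 129 other named genes 113 were past the fold, of which 55 were not with the deposited values, 27 with an offset of 50 and 8 with the mean of all probes. Slc25a27 turned direction, from -0.83 to 0.25 with the mean of all probes. Dim genes are the least certain. The 350 genes detected in KO CL alone had a median log2 intensity of 6.26 there, and for 318 of them the bound was below the fold. A bound below the fold leaves the size of the difference unknown.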

Other observations

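Genes known from blood vessels and from the immune response went both ways at CL, and most of those named here were chosen after their values were seen. Angpt2, the ligand that loosens vessels, had a log2 intensity of 10.56 in CON CL and 9.92 in KO CL, and its relative Angpt4 had 10.85 and 10.13. Gja5, a connexin of arteries, had 8.58 and 7.94. Ackr1, a chemokine receptor of venules, was brighter in KO CL (6.59 and 7.28). These 4 genes are outside the list of 20 detected endothelial genes, which held none past the fold, and their median was -0.08. Of 35 detected genes of antigen presentation and the interferon response Bst2 (tetherin), which holds budding viruses at the cell surface, was lower (8.14 and 7.39), and their median was -0.11. The complement genes C4b and C1s2 were lower too, with 10.30 and 9.5, and 7.31 and 6.53. Tlr6, a receptor for bacterial lipopeptides, was detected in KO CL alone with 6.80, at least 1.52-fold more.

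Genes of the Wnt pathway other than Sfrp5 stayed within the fold among the 47 detected. Tle2, a co-repressor that acts with Wnt and Notch target genes, is outside that list and had 10.98 in CON CL and 10.19 in KO CL. Among signals between nerve and tissue, Tac1, the precursor of substance P, was brighter in KO CL (9.0 and 9.75) and so was Reln (reelin), with 9.42 and 10.27. Ecel1, a neuronal peptidase, had 8.05 and 7.25. Hif1a, the oxygen-sensing factor, had 7.91 and 8.57, while the 25 detected glycolysis and hypoxia genes held none past the fold.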
